A study of Peromyscus maniculatus with 10 samples.

Results

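The 200 genes described here are those whose transcript level differed least between the primary ear fibroblasts of 10 outbred deer mice, among genes that were well expressed in these cells. They were chosen on the measured counts themselves. Of 25394 genes in the count table, 23570 lie on a numbered chromosome, and 4879 of these had a mean count from 1000 to 10000 over the 10 libraries, which is called the count range below. Within it, the 200 genes with the smallest standard deviation (SD) of log2(CPM + 1) were taken, where CPM is the gene's count as a share of the library (counts per 1e6) after scaling by edgeR's TMM factors. The small SD of these genes is therefore a description of the choice, and no test was made of it.

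The donors were male deer mice (BW stock), a colony that is closed but not inbred, and the labels give an age of 3 weeks and name no treatment of the cells. Ear tissue was digested with collagenase and the fibroblasts were grown in RPMI medium, and each animal gave 1 culture and 1 library, so that differences between animals and differences between cultures cannot be told apart. All 10 libraries form a single group. Between 20811334 and 31912526 counts per library fell on genes, a 1.53-fold range. The table lists genes by Ensembl identifier only and the RefSeq gene table used here pairs 0 of its 37364 genes with such an identifier, so genes are given by identifier and by position on the HU_Pman_2.1 assembly, the function of each gene is not described, and the fibroblast label was not checked against marker genes.

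The amount of an mRNA in a cell depends on the rates at which it is made, processed and degraded, and both genotype and the state of a culture can change these rates. Genes that serve every cell, such as those for protein synthesis, splicing or protein turnover, are often found at a steady level across samples and are used as references in RT-qPCR. A low spread in sequencing counts has a floor, since the number of reads that fall on a gene varies by chance even when the level of its mRNA is the same, and this counting error is smaller for genes with more counts.

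Over the 200 genes, the SD between animals had a median of 0.0543 on the log2 scale and ran from 0.0258 to 0.0614. The median over the whole count range was 0.146. The highest library of a stable gene was above its lowest library by a median of 1.12-fold, and by at most 1.16-fold, whereas the median over the count range was 1.38-fold. The 200 genes with the largest SD had a median SD of 1.05 and a median range of 10.2-fold. Counting error alone, computed from the counts of each gene, gives a median SD of 0.0295 for the stable genes and 0.0326 over the count range. Its variance was a median of 30.7% of the measured variance of the stable genes, against 4.33% over the count range. The genes were chosen by a small measured variance, so nothing is read from this difference. In 66 of the 200 genes the SD was less than 1.5 times that from counting error, and in 5 of them it was below it. Over the count range the shares were 1.37% and 0.102%. An SD over 10 libraries is itself imprecise, and the smallest were taken. For those 5 stable genes the measured spread was no larger than counting error alone gives. This does not show that their levels were equal between animals. Among the other stable genes the SD rose to at most 3.56 times the SD from counting error.

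**Figure D1:**
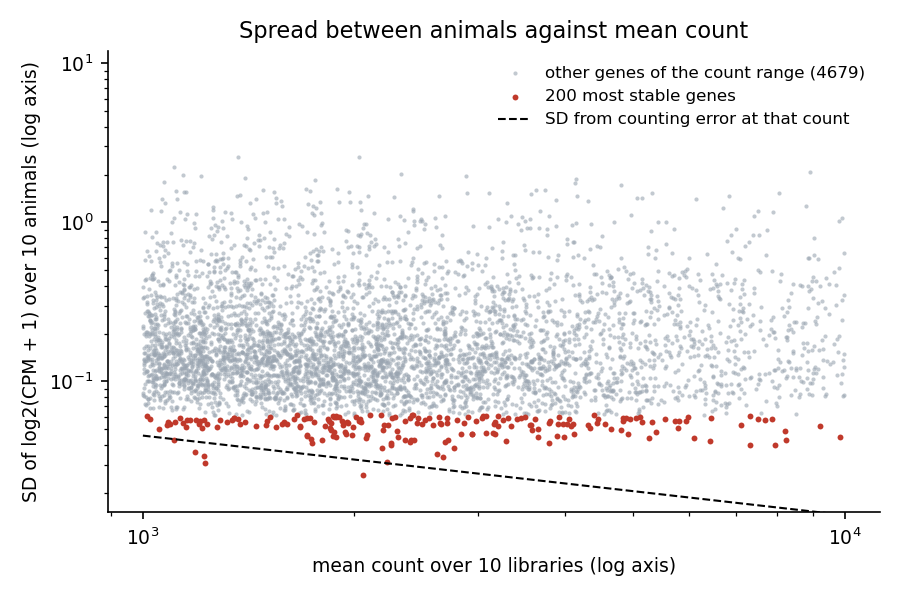
Each point is a gene of the count range, with its mean count over the 10 libraries on a log axis and the SD of its log2(CPM + 1) over the 10 animals on a log axis. The 200 stable genes (red) lie between 0.0258 and 0.0614, closest to the dashed line (SD from counting error) at low counts, while the other 4679 genes (grey) reach 2.58.

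The gene with the smallest SD was ENSPEMG00000022621, a gene of 9 merged exons on the minus strand of chromosome 1 from 27765780 to 27805122. Its counts were 1648 to 2407 and its log2(CPM + 1) was 6.20 in the lowest library, that of animal #36764, 6.25 at the median and 6.29 in the highest, that of animal #36907. This is a 1.06-fold range, and the SD of 0.0258 is 0.806 times that from counting error.

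ENSPEMG00000006509, a short gene of 7 exons in 2.16 kb on the plus strand of chromosome 7 (50902698 to 50904856), had log2 levels of 5.48 at the lowest, 5.52 at the median and 5.56 at the highest. With 990 to 1367 counts per library, its SD of 0.0306 is 0.741 times that from counting error, the lowest such ratio of the 200 genes. ENSPEMG00000006667 on chromosome 14 (53505006 to 53538480, plus strand, 10 exons) had log2 levels of 6.30, 6.36 and 6.40 in the same order and an SD of 0.0309, 1.01 times that from counting error. In both genes the spread between animals was at or below the size of counting error.

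ENSPEMG00000022679 on chromosome 4 (2083727 to 2181697, minus strand) is a longer gene, with 25 exons over 97.97 kb. Its log2 level was 6.56 at the lowest, 6.62 at the median and 6.67 at the highest, with an SD of 0.0334. ENSPEMG00000008926 on chromosome 3 (136896099 to 136910591, plus strand) was at 5.46, 5.50 and 5.55 with an SD of 0.0339, and ENSPEMG00000015840 on chromosome 22 (48274927 to 48323088, plus strand) was at 6.52, 6.60 and 6.65 with an SD of 0.0350. The lowest and highest libraries of these 3 genes were those of 5 different animals, #36746, #36772, #36787, #36797 and #36798.

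The other four of the 10 genes with the smallest SD span a wider range of abundance. ENSPEMG00000023843 on chromosome 13 (15354891 to 15387191, plus strand) had a median log2 level of 5.46 between 5.42 and 5.52. ENSPEMG00000000111 on chromosome 4 (121207954 to 121285266, plus strand, 27 exons) was at 6.66 between 6.62 and 6.75. ENSPEMG00000022731 on chromosome 5 (97893500 to 97913783, plus strand) was at 6.33 between 6.28 and 6.40. The most abundant of the 10 was ENSPEMG00000019091 on chromosome 3 (137954379 to 137960875, minus strand), with 6617 to 9020 counts and a median log2 level of 8.19 between 8.11 and 8.24. Its SD of 0.0396 is 2.44 times that from counting error, which is 0.0162 at this depth. Each of these 10 genes ranged by at most 1.10-fold from the lowest to the highest library. Animal #36789 was above the mean in 8 of them and animal #36787 was below it in 8, while the other animals were above the mean in 3 to 7.

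**Figure D2:**
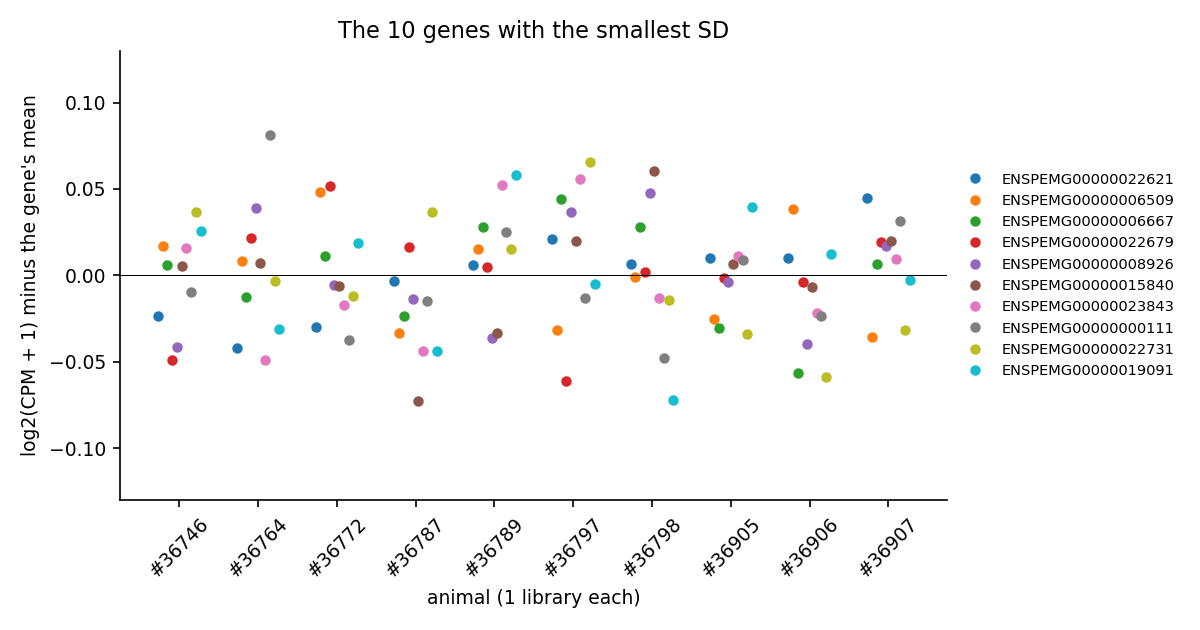
For the 10 genes with the smallest SD, the log2(CPM + 1) of each animal is plotted as its difference from the gene's mean over the 10 animals. All points lie within 0.1 of the mean on the log2 scale, and no animal is above or below the mean for all 10 genes.

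The edge of the set is not a natural boundary. The last 5 genes inside it, ENSPEMG00000022073, ENSPEMG00000008100, ENSPEMG00000011306, ENSPEMG00000017695 and ENSPEMG00000022459, had SDs of 0.0612 to 0.0614. The first 5 genes outside it, ENSPEMG00000019573, ENSPEMG00000020339, ENSPEMG00000017484, ENSPEMG00000012968 and ENSPEMG00000001438, had SDs of 0.0614 to 0.0615. The next 200 genes in order of SD reached only 0.0731, so they are used below as the closest set for comparison.

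The choice was repeated 10 times, every time on 9 animals, and the level of the remaining animal was then compared with the mean of the other 9, so that the value comes from an animal that had no part in the choice of genes. For the 200 genes chosen on 9 animals, the median absolute deviation of the left-out animal was 0.0442 to 0.0840 on the log2 scale, or 1.03-fold to 1.06-fold. For the other genes of the count range it was 0.0778 to 0.181, or 1.06-fold to 1.13-fold. The chosen genes deviated less in 10 of 10 left-out animals, by a factor of 1.59 (animal #36772) to 2.88 (animal #36907). In each animal 145 to 188 of the 200 chosen genes were below the median of the others. A deviation of more than 1 on the log2 scale was seen for 0 of the 200 chosen genes in each left-out animal, and for 0.575% (animal #36906) to 6.54% (animal #36764) of the other genes. At the lower of these shares, 200 genes are too few to show a difference. The largest deviation was 1.43-fold, for ENSPEMG00000023666 in animal #36789. The left-out deviation of the chosen genes was largest in animals #36764 and #36789, as was that of the other genes. The 10 comparisons share animals and the deviations use library factors from all 10 libraries, so no p-value is given.

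**Figure D3:**
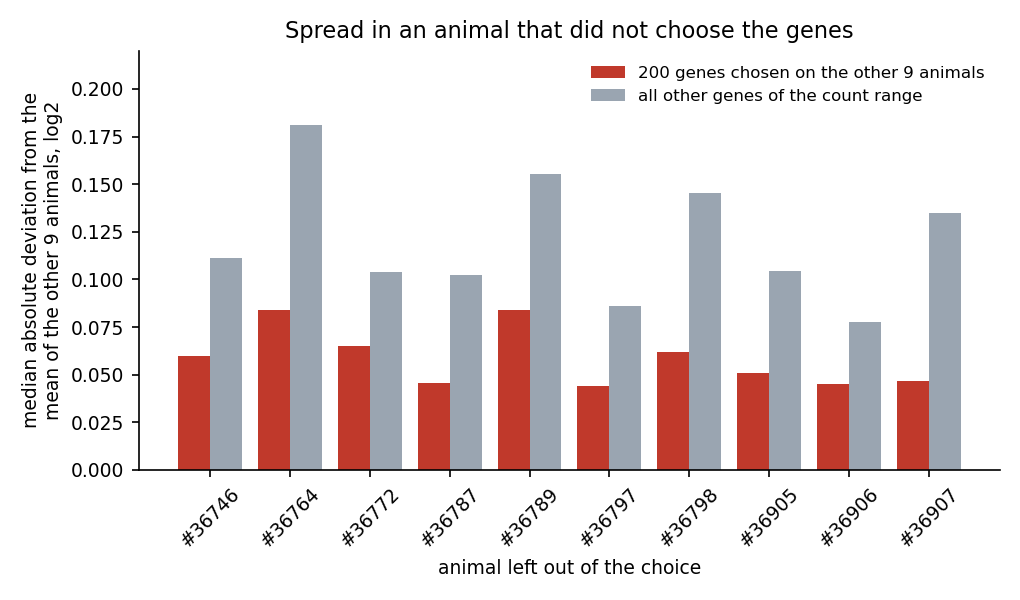
Bars give, for each animal left out of the choice, the median absolute deviation of its log2(CPM + 1) from the mean of the other 9 animals. The 200 genes chosen on the other 9 (red) lie between 0.0442 and 0.0840, below the remaining genes of the count range (grey, 0.0778 to 0.181) in every animal.

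The titles of the libraries number 7 animals from 36746 to 36798 and 3 animals from 36905 to 36907, and the labels do not say what the series of numbers stand for. When 200 genes were chosen on the 7 animals, their SD over the other 3 had a median of 0.0555, against 0.112 for the remaining genes. The mean of the 3 animals differed from that of the 7 by a median of 0.0373 on the log2 scale in the chosen genes and by 0.0738 in the remaining genes, so that both the spread within the second series and the shift between the series were smaller by a factor of 2.02 and 1.98, respectively. Of these 200 genes, 136 are among the 200 chosen on all animals.

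The identity of the chosen genes changed with the animals and the settings used. Without 1 animal, 137 to 182 of the 200 genes were chosen again. Animal #36764 changed the choice most, followed by animal #36789 with 141. In all 10 sets of 9 animals, 102 genes were chosen, among them 91 of the 100 with the smallest SD and 11 of the other 100, and all 10 genes named first above. At the other end, 25 genes were chosen in fewer than 5 of the 10 sets. Without animals #36764 and #36789 together, 102 genes remained. With library totals alone in place of TMM factors, 88 genes remained, and with the median absolute deviation in place of the SD, 68.

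The counts of the stable genes as deposited differed with the size of the library, and their sum had a 1.43-fold range over the animals. The 200 genes together took 2.05% of the counts of animal #36764 and 2.30% of those of animal #36789, with the other 8 animals between them, a 1.12-fold range. The TMM factors had the same ends, 0.935 in animal #36764 and 1.05 in animal #36789. A library factor computed from the geometric mean of the 200 genes differed from the TMM-scaled library size by a ratio of 0.991 to 1.01 over the animals. The genes were chosen after TMM scaling, so this closeness follows from the choice.

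After scaling, the median deviation of the 200 genes from their own means was -0.018 (animal #36772) to 0.013 (animal #36798) on the log2 scale. The SD of the deviations over the 200 genes was 0.0439 to 0.0583, a 1.33-fold difference between animals. Over the other genes of the count range the corresponding SD was 0.186 to 0.518, a 2.79-fold difference. The widest library was that of animal #36764 in both sets. When every gene was scaled to the same variance, animal #36764 had a mean squared deviation of 1.22 in the stable genes and 1.88 in the others, and animal #36906 had 0.765 and 0.443. Over all animals the value ran from 0.723 to 1.22 in the stable genes and from 0.443 to 1.88 in the others. The choice by SD leaves out genes that vary most in the animals that stand apart, and scaling afterwards does not undo this, so nothing is read from these differences. Animal #36764 was the highest library in 35 of the 200 genes (17.5%), the most of any animal, and in 24.4% of the other genes, and it was the lowest in 27 (13.5%) and in 18.9%, respectively. The lowest library of the stable genes was most often that of animal #36772, with 33 genes (16.5%), against 9.79% of the other genes. Among these, animal #36789 was most often the lowest, with 19.4%.

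**Figure D4:**
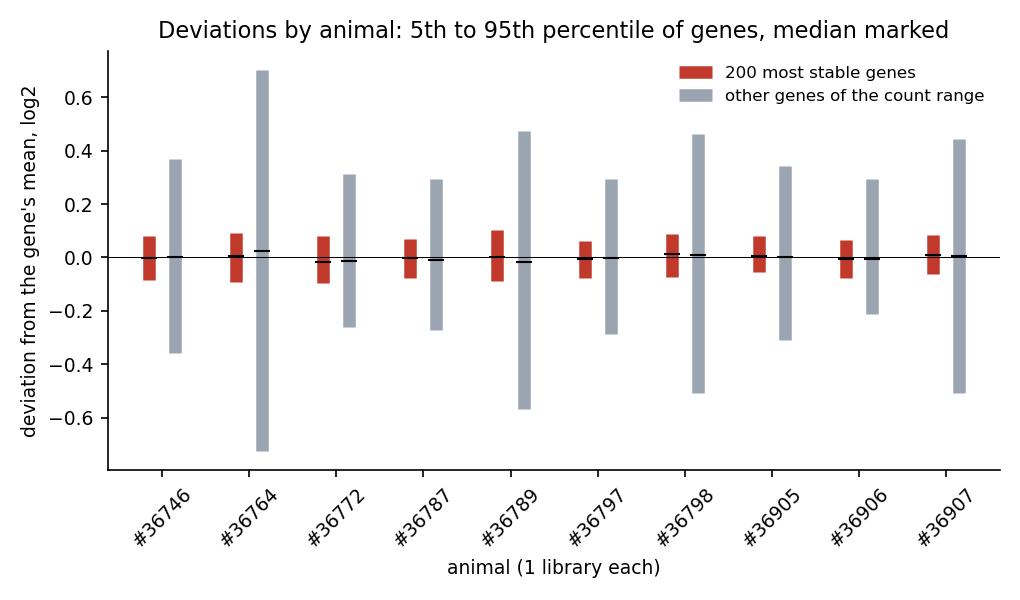
Vertical bars span the 5th to the 95th percentile of the deviations of genes from their own mean log2(CPM + 1) in each animal, with the median marked. The bars of the 200 stable genes (red) are shorter than those of the other genes (grey) in every animal, which follows from the choice by spread. The red bars are longest in animals #36789 and #36764. The grey bars are longest in animals #36764, #36789, #36798 and #36907.

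In a single gene, 1 library can still lie apart from the other 9. By Dixon's ratio, the gap of the extreme library to the next over the range of the 10, 8 of the 200 stable genes (4.00%) had such a library. With 1 animal left out of the choice, 4 to 12 of the chosen genes had such a library. Over the 4879 genes of the count range the share of genes with such a library was 8.81%, and it was 5.50% in the next 200 genes. An outlying library raises the SD by which the genes were chosen, so nothing is read from this difference. In 6 of the 8 genes the library apart was that of animal #36764. The largest ratio, 0.771, belonged to ENSPEMG00000021274 on chromosome 10 (98457657 to 98519813, minus strand, 28 exons), where 9 animals lay between 7.46 and 7.51 on the log2 scale and animal #36764 was at 7.66. ENSPEMG00000022937 on chromosome 13 (15081045 to 15101247, plus strand) was also highest in this animal, at 7.87 against a median of 7.72. ENSPEMG00000009063 on chromosome 4 (104720843 to 104732761, minus strand) was lowest there, at 5.96 against a median of 6.11. In the whole count range this animal gave 257 of the 430 libraries that lay apart and animal #36789 gave 101. The cause was not tested.

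How far the stable genes varied together is described next. A gene that follows the main axis of variation between these libraries tends to have a larger SD and so to be left out by the choice, so nothing is read from the differences in the values that follow. The first principal component of the other genes of the count range, each scaled to the same variance, held 35.5% of their variance, with animals #36764 and #36789 at one end and animals #36798 and #36907 at the other. The same axis held 15.7% of the scaled variance of the stable genes, which had no part in its calculation, and 20.5% in the next 200 genes. Pearson's R with the axis was at least 0.8 in size for 1 of the 200 stable genes, for 7 of the next 200 and for 21.8% of the other genes of the count range. Without animals #36764 and #36789, the first axis of the other genes held 39.4% of their variance and 19.6% of that of the 199 stable genes that stayed in the count range. Among themselves, the stable genes had a median size of R of 0.25 over 19900 pairs. It was 0.28 in the next 200 genes and 0.36 over the pairs of the other genes. Of the pairs of stable genes, 0.749% reached 0.8 in size, against 1.17% and 5.09%, respectively. Apart from the values without animals #36764 and #36789, which are over 8 libraries, all are over the same 10 libraries. Counting error is larger relative to the measured variance in the stable genes, and its part in these values was not tested.

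The study analyses its fibroblasts by whole-transcriptome coordination, in which every transcript is correlated with each gene of a pair over the animals and both sets of R values are then correlated over transcripts. Here the transcripts were the 13935 with a mean count of at least 10, counted per gene. With a stable gene as the reference, the central 95% of R over these transcripts lay between -0.64 and 0.65, as the median over the 200 genes. With the other genes of the count range it lay between -0.74 and 0.75. The coordination of pairs of stable genes had a median size of 0.35 and reached 0.5 in 30.2% of pairs. In the next 200 genes the median size was 0.39, and 36.3% of pairs reached 0.5. For the other genes of the count range these values were 0.51 and 50.8%. A negative sign was about as frequent as a positive one, with 49.4% of pairs of stable genes and 49.8% of pairs of the other genes. The pairs share the same 10 libraries and the same transcripts, which vary together. Whether large values of either sign arise without a relation between the genes of a pair was not tested. As above, a gene that follows the main axis tends to be left out by the choice. Counting error is also larger relative to the variance of the stable genes. Nothing is read from the differences between the sets, and the values are given as a description.

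The structure of the genes was not used in the choice, and it is read from the exons listed in the count table. Exons that overlap were merged before they were counted. Stable genes had a median of 11 exons, as had all genes of the count range, and a median genomic span of 22.6 kb, against 22.5 kb. The ends of the distribution differed more than the middle. Only 10 of the 200 stable genes (5.00%) spanned 100 kb or more, against 10.9% of the count range and 20.5% of the 200 genes with the largest SD. The share was also 5.00% in the next 200 genes. When the count range was ordered by SD and cut into 10 bins of 487 or 488 genes, the share was 4.92% in bins 1 and 2, 8.20% in bin 4, 7.38% in bin 5, 12.1% in bin 7 and 20.3% in bin 10. When the count range was divided into 3 classes by mean count, 7.89%, 3.80% and 4.82% of the stable genes in the low, middle and high class spanned 100 kb or more, against 10.2%, 11.2% and 11.2% of all genes in the class. With 3 or 4 long stable genes per class, these shares are imprecise. Under all 23 alternatives tried, 7 to 11 of the 200 chosen genes were of this length, and 9 without animals #36764 and #36789.

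**Figure D5:**
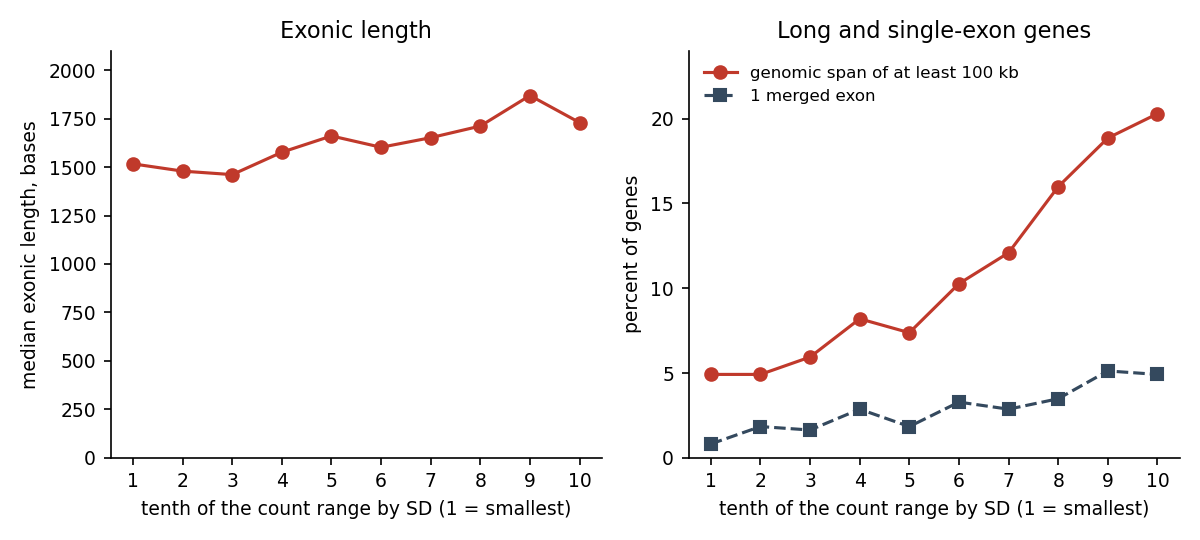
Genes of the count range were ordered by SD and cut into 10 bins, with the smallest SD at 1. The median exonic length (left, bases) is lowest in bin 3, at 1461, and highest in bin 9, at 1869. The percentage of genes that span at least 100 kb (right, circles) goes from 4.92% in bin 1 to 20.3% in bin 10. That of genes of 1 exon (right, squares) goes from 0.820% in bin 1 to 4.92% in bin 10.

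The longest stable gene was ENSPEMG00000017853 on the minus strand of chromosome 8 (108039468 to 108391567), with 34 exons over 352.1 kb. Its log2 level was 5.92 at the lowest, 5.98 at the median and 6.07 at the highest, with an SD of 0.0458. It was the only stable gene of 300 kb or more, a length found in 0 of the next 200 and in 1.56% of the count range. The shortest was ENSPEMG00000029522 on the plus strand of chromosome 5 (129740296 to 129740929), with 2 exons in 0.634 kb, and its log2 level was 5.36, 5.42 and 5.56 in the same order.

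The number of exons ranged from 2 to 46. The gene with the most was ENSPEMG00000020126 on the plus strand of chromosome 15 (30336515 to 30436473), which also had the longest exonic sequence, 8397 bases, and an SD of 0.0542. Of the 3 stable genes with 2 exons, ENSPEMG00000029167 on the minus strand of chromosome 4 (150049805 to 150051332) had the smallest SD, 0.0426, and the shortest exonic sequence of all, 156 bases. No stable gene consisted of 1 exon, against 3 of the next 200, 2.87% of the count range and 4.00% of the 200 genes with the largest SD. This count was 0 to 3 under the alternatives, with 2 when animals #36764 and #36789 were left out and 3 when animal #36798 was.

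Exonic length had a median of 1440 bases in the stable genes, 1548 in the next 200 and 1620 over the count range. The median of the stable genes was also below that of all genes in each class of mean count. It was 1212.5 against 1452 bases in the low, 1443 against 1644 in the middle and 1695 against 1812 in the high class. Under the 23 alternatives, the median of the chosen genes was 1350 to 1560 bases. No difference in exonic length was tested. Expressed per kb of exon, the median level of the stable genes was 67.5 CPM, against 57.3 CPM in the next 200 genes and 48.7 CPM over the count range. The choice itself leans towards high counts, since 2.34% of the genes in the low class were chosen, against 4.86% in the middle and 5.10% in the high class. The highest mean count, 9837, belonged to ENSPEMG00000005647 on the plus strand of chromosome 18 (45314200 to 45326506), with a log2 level of 8.40 to 8.55. The lowest, 1014, belonged to ENSPEMG00000031379 on the plus strand of chromosome 19 (25714811 to 25753562), with a log2 level of 5.15 to 5.33.

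Stable genes were found on all 23 numbered chromosomes. Chromosome 1 carried 27, chromosomes 4 and 8 carried 19 each, and chromosomes 17 and 21 carried 2 each. As a share of the genes of the count range on the same chromosome this is 1.10% on chromosome 21 to 6.34% on chromosome 14, and 5.09% on chromosome 1. Counts per chromosome are small and no test of their distribution was made.

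The gap from a stable gene to the nearest gene had a median of 3.90 kb, against 4.72 kb in the next 200 genes, 5.39 kb over the count range and 12.5 kb for the 200 genes with the largest SD. A start within 1 kb of the start of a gene that is transcribed in the opposite direction, as at a shared promoter, was found for 14 stable genes (7.00%), for 9 of the next 200, for 5.14% of the count range and for 1 of the 200 genes with the largest SD. In 31 stable genes (15.5%) the gene body overlaps that of another gene, against 11.5% of the next 200, 11.6% of the count range and 8.00% of the 200 genes with the largest SD. No difference between these shares was tested. Exons overlap those of a gene on the other strand in 1 stable gene, against 1.27% of the count range and 3 of the next 200, and those of a gene on the same strand in 1, against 0.102% and 0. These are ENSPEMG00000014177 on chromosome 7 (104806294 to 104832277, minus strand) and ENSPEMG00000017950 on chromosome 16 (17542968 to 17587297, minus strand). In both cases reads in the shared stretch cannot be given to 1 gene, for the overlap on the other strand because the counts were made without regard to strand.

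Among all genes of the table, 4 pairs of direct neighbours consisted of 2 stable genes, which takes in 8 of the 200. Such pairs were not counted in the other sets of genes, so nothing is read from their number. The closest was ENSPEMG00000012208 on the plus strand and ENSPEMG00000019231 on the minus strand of chromosome 1, whose 3' ends face each other across 2396 bases (117381489 to 117384496 and 117386893 to 117398606), with SDs of 0.0579 and 0.0440. ENSPEMG00000015613 and ENSPEMG00000013393 lie 14315 bases apart on the plus strand of chromosome 6 (38531321 to 38561293 and 38575609 to 38596927), with SDs of 0.0588 and 0.0547. ENSPEMG00000020852 and ENSPEMG00000021147 lie 20052 bases apart on the minus strand of chromosome 16 (46547247 to 46569214 and 46589267 to 46614130), with SDs of 0.0481 and 0.0590. The other neighbours of stable genes that fall in the count range, 96 genes left after stable genes were removed from among them, had a median SD of 0.149. The 2253 neighbours over the whole count range had a median SD of 0.144, but 89 stable genes were kept among these, so the medians are not compared.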

How the data were processed

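RNA of primary ear fibroblasts from 10 animals was sequenced by the authors as 1 library per animal. Per the submitters' processing notes, reads were trimmed with Trim Galore 0.4.5 and aligned with STAR 2.7.2b, and per the file headers featureCounts 1.5.3 counted read pairs on the exons of Ensembl release 98 genes of HU_Pman_2.1 without the option for strand. The deposited values are raw counts that were not normalized, and 0 sample columns were left unassigned. The deposited exonic length per gene is in bases.

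TMM factors over all genes were computed with edgeR 4.0.16 under R 4.3.3 and the remaining values with Python 3.11.15, numpy 2.4.6 and pandas 2.3.3. The SD used n - 1, and the SD from counting error was the root mean of 1/count over libraries divided by the natural logarithm of 2. Dixon's critical value was 0.466. The genes and the measures were chosen with earlier results of these data known. Genes were named by rank (the 10 smallest SDs, 5 at each side of the limit), by extremes of count, span and exon number, as the 3 closest neighbouring pairs and as the 3 largest Dixon ratios; ENSPEMG00000023666 and the genes with overlapping exons were added after their values were seen. Lists of cell type markers and reference genes could not be used without symbols. With 1 group, and genes chosen by their spread, no test between groups was made. The series of animal numbers were compared as a description only. The choice was also run on counts drawn from known means and spreads, and no outcome of that run is reported here. Alternatives included DESeq2 1.42.0 size factors, other count limits, other measures of spread, thinned libraries and animals left out.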

Additional observations from a re-analysis of the deposited data

Results flagged for a closer look

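In 8 of the 200 stable genes 1 library lay far from the other 9 by Dixon's ratio. This is 4.00%, against 8.81% (430 of 4879) of the whole count range. Chance alone would mark about 1 in 20 groups of libraries if the genes had not been chosen by their spread. An outlying library raises the SD by which the stable genes were chosen, so nothing is read from either comparison. The library of animal #36764 was the highest in ENSPEMG00000014629 (log2 level 6.54), ENSPEMG00000019548 (7.34), ENSPEMG00000013503 (6.70), ENSPEMG00000022937 (7.87) and ENSPEMG00000021274 (7.66), and the lowest in ENSPEMG00000009063 (5.96). That of animal #36746 was the lowest in ENSPEMG00000012359 (6.33), and that of animal #36907 the highest in ENSPEMG00000022459 (6.62), the last gene inside the limit of the set. None of the 10 measures compared over the libraries, such as the share of counts that fell on the stable genes or the median left-out deviation, had a library apart. The cause was not tested.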

How the results depend on the processing

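The choice was repeated under 23 alternatives, 10 of which leave out 1 animal. Of the 200 genes, 88 were chosen with library totals in place of TMM factors, 68 by the median absolute deviation and 102 without animals #36764 and #36789; it was 136 to 198 under the other 10 alternatives and 137 to 182 with 1 animal left out. The median SD of the chosen genes, 0.0543, was 0.0694 by the median absolute deviation, 0.0437 without animals #36764 and #36789 and 0.0491 to 0.0542 with 1 animal left out. The number of chosen genes with 1 library apart, 8, was 41 by the median absolute deviation, which by its construction does not respond to a single far value, 5 with no upper limit on the mean count, and 4 (without animal #36764) to 12 with 1 animal left out. The cause of the other shifts was not tested. Median span (20.2 to 24.1 kb) and median exonic length (1350 to 1560 bases) kept to these ranges under all 23. The counts of long and of single-exon genes were recomputed as alternatives added after the data were seen. Counting error alone gives SDs of 0.0146 to 0.0457 in the stable genes, and with its variance taken off 174 of the 200 were chosen.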
